A study of Mus musculus with 15 samples.

Results

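The linker histone H1 genes are the 7 genes Hist1h1a, Hist1h1b, Hist1h1c, Hist1h1d, Hist1h1e, H1f0 and H1fx, chosen by symbol from the 19069 genes in the RNA count files. The members were picked by name and not by a measured value, but with earlier results of these data known. All 7 had enough reads to be tested. The study exposed the established mouse fibroblast line NIH3T3 to UV-C light of 254 nm at 80 J/m2 and measured RNA, open chromatin and acetylation of histone H3 at lysine 27 (H3K27ac) 6 h later. RNA-seq covered 3 untreated and 3 irradiated libraries of NIH3T3 cells. FAIRE-seq, which recovers DNA poorly crosslinked to protein, and H3K27ac ChIP-seq, which enriches DNA of active promoters and enhancers, had 2 samples per condition, and 1 input DNA sample came from untreated cells. After exposure the irradiated cells received fresh medium with DMSO, and the labels do not say whether untreated cells were washed and re-fed as well, so irradiation, re-feeding and DMSO cannot be told apart. Nothing in the labels says that the libraries came from separate cultures, so the spread behind each p-value may be technical.

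Linker histones bind the DNA where it enters and leaves the nucleosome and favour the folding of chromatin. Hist1h1a to Hist1h1e, now named H1f1, H1f5, H1f2, H1f3 and H1f4, lie in the large histone gene cluster. They have no introns, are transcribed mainly in S phase, and end in a stem-loop in place of a poly(A) tail. H1f0, which accumulates in cells that stop dividing, and H1fx (now H1f10), a more distant family member, lie outside the cluster and make polyadenylated mRNA independently of replication. Poly(A) selection is not mentioned in the labels, and which of the clustered transcripts a library could capture is therefore unknown. The coding sequences of the clustered genes are similar, and the treatment of reads that match several of them is not given in the labels, so values of single clustered genes are uncertain to that extent.

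The promoter sequences are shown because the letters at the start sites separate the clustered genes from H1f0 and H1fx. They are the 150 bases before the RefSeq start site on build GRCm38.p6, read 5′ to 3′ on the gene's strand. Capitals mark every match, lying wholly inside the stretch and on either strand, to 4 motifs. These are the H1 box AAACACA, which is a known element of S-phase H1 promoters, the CCAAT box, the TATA box TATAAA and the GC box GGGCGG. All 7 members had a RefSeq promoter.
Hist1h1a, chr13:23763518-23763667, strand +: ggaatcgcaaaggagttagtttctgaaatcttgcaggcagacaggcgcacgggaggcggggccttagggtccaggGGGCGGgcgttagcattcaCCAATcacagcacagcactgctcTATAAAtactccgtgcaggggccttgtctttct
Hist1h1b, chr13:21780626-21780775, strand -: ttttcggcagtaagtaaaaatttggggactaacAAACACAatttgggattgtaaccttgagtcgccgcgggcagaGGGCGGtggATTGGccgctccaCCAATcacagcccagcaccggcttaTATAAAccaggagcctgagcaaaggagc
Hist1h1c, chr13:23738657-23738806, strand +: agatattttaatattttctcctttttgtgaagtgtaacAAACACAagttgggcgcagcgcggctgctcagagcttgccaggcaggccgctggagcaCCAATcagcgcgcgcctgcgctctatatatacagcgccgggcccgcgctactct
Hist1h1d, chr13:23554882-23555031, strand +: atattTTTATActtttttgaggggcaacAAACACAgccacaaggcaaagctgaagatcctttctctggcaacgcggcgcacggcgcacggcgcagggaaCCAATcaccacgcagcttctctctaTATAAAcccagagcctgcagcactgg
Hist1h1e, chr13:23622559-23622708, strand -: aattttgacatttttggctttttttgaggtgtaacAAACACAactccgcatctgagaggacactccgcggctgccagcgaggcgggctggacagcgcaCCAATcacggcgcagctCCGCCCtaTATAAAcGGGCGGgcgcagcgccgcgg
H1f0, chr15:79028062-79028211, strand +: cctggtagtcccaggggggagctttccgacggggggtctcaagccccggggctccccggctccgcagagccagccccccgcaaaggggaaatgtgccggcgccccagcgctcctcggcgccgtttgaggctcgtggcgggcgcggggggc
H1fx, chr6:87981483-87981632, strand -: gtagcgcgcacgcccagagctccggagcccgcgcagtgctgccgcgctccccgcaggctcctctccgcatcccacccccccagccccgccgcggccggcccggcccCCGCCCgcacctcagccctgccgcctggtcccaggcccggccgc

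The H1 box stood on the gene's strand in 4 of the 5 clustered promoters, with its first base at −117 in Hist1h1b, −112 in Hist1h1c, −122 in Hist1h1d and −115 in Hist1h1e, counted from the start site. It was not among the letters of Hist1h1a, H1f0 or H1fx in the 300 bases from 250 before to 50 after the start. A CCAAT box on the gene's strand began between −56 and −51 in all 5 clustered promoters and was in neither of the others. TATAAA began between −33 and −26 in 4 clustered promoters, while Hist1h1c held the run tatatata near that place. The GC box was in Hist1h1a, Hist1h1b, Hist1h1e and H1fx, and in H1f0 it overlapped the start site, from −4 to 2, so it is not capitalised. Over the 32851 RefSeq mouse promoters of 300 bases, 7.18% held AAACACA, 37.4% CCAAT, 13.6% TATAAA and 35.7% GGGCGG on either strand. The first 3 of these motifs occurred together in 0.548% of promoters, and in 3 of the 7 members, Hist1h1b, Hist1h1d and Hist1h1e. G and C made up 45.7% (Hist1h1d) to 54.3% (Hist1h1e) of the 300 bases of the clustered genes, but 75% in H1f0 and 77.7% in H1fx. A match describes the letters and does not show that a factor bound there.

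The RNA libraries held 14211528 to 22032701 reads over genes. The library of irradiated replicate 1 stood apart, with 17607 genes detected against 18350 to 18787 in the others, and without it the members' log2 fold changes were −2.91 for Hist1h1d, −2.96 for Hist1h1b, −2.12 for Hist1h1a, −1.77 for Hist1h1e, −1.57 for Hist1h1c, −1.23 for H1f0 and 0.68 for H1fx, each on the same side of the edgeR threshold as with it. All 9 fibroblast markers were above 1 CPM in every library, with summed levels of 17070 to 22200 CPM in untreated and 21380 to 37800 CPM in irradiated libraries. The 6 epithelial markers summed to 5.87 to 9.88 and 5.32 to 9.63 CPM, and the 4 leukocyte markers to 6.64 to 7.77 and 12.32 to 15.02 CPM. The 3 endothelial, 3 neural and 3 muscle markers summed to at most 9.84 CPM in any library. No marker of the other cell types was at 0 in all libraries, and their part in the results below was not tested.

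At 6 h after UV, RNA of all 5 clustered H1 genes and of H1f0 was lower, and H1fx did not pass the test. Of the 14925 genes tested, 12.4% were called lower, 7.7% higher and 20.1% either way (edgeR quasi-likelihood test, Benjamini-Hochberg adjusted p below 0.05 over all genes), against 6, 0 and 6 of the 7 members. No member was higher at an unadjusted p below 0.05 either, and DESeq2 called the same numbers. The median log2 fold change over all tested genes was −0.01, and −0.24 by library totals alone. The first value is set near 0 by the scaling to the bulk of genes, so it does not show that total RNA was unchanged. The 7 genes together took 0.147% to 0.153% of all reads in untreated libraries and 0.0330% to 0.0395% in irradiated ones. In such bulk samples, fewer cells in S phase and less H1 mRNA per cell cannot be told apart. CPM values below, which are read counts relative to library size, are scaled by TMM, a normalization to the bulk of genes, and are not divided by transcript length, so levels are compared between conditions and not between genes.

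**Figure D1:**
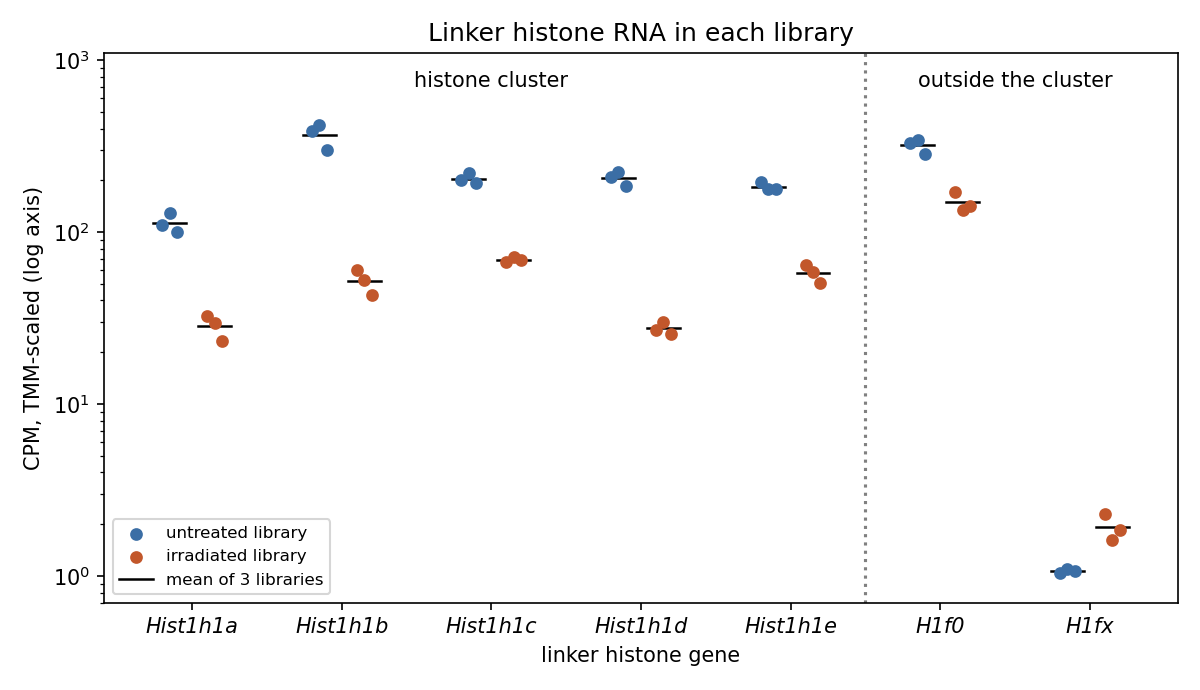
CPM of each linker histone gene (log axis) in the 3 untreated (blue) and 3 irradiated (orange) libraries, with black bars for the means. The irradiated libraries lay below all untreated ones for the 5 clustered genes and H1f0, and above them for H1fx, which was near 1 to 2 CPM.

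Hist1h1d encodes a main somatic H1 subtype. Its RNA stood at 209, 224 and 185 CPM in untreated replicates 1 to 3 and at 27.05, 29.8 and 25.6 CPM in the irradiated ones. Every irradiated library was far below every untreated one. The log2 fold change was −2.90 ± 0.20 (SE, n = 3 per group, edgeR adjusted p = 4.72e-08), 7.49-fold lower, and only 3 of the tested genes fell further.

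Hist1h1b, whose product is the subtype H1.5, was at 387, 417 and 299 CPM in untreated and at 59.8, 52.6 and 42.9 CPM in irradiated libraries. The groups did not overlap. Its log2 fold change was −2.83 ± 0.23 (edgeR adjusted p = 2.13e-07), and its rank among all genes came directly after that of Hist1h1d. The 95% intervals of both genes, −3.33 to −2.48 for Hist1h1d and −3.30 to −2.35 for Hist1h1b, overlapped almost wholly. Their order turned without irradiated replicate 1, where Hist1h1b was at −2.96 and Hist1h1d at −2.91.

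Hist1h1a, a subtype with a restricted distribution over tissues, was at 110, 129 and 101 CPM in untreated and at 32.4, 29.6 and 23.3 CPM in irradiated libraries. It thus kept 25.1% of its untreated level, with a log2 fold change of −1.99 ± 0.20 (edgeR adjusted p = 1.99e-06). Hist1h1e, a broadly expressed subtype, was at 196, 179 and 178 CPM before and 64.3, 58.7 and 50.6 CPM after UV. Its log2 fold change was −1.67 ± 0.19 (edgeR adjusted p = 9.69e-06), and no irradiated library reached the untreated range.

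Hist1h1c, another broadly expressed subtype, changed least among the clustered genes. It was at 202, 219 and 193 CPM in untreated and at 66.7, 71.1 and 68.5 CPM in irradiated libraries, and kept 33.6% of its level. The log2 fold change was −1.57 ± 0.19 (edgeR adjusted p = 1.50e-05). The 95% interval of Hist1h1c, −1.97 to −1.18, did not meet those of Hist1h1d and Hist1h1b. It overlapped those of Hist1h1e (−2.07 to −1.26) and Hist1h1a (−2.41 to −1.58), so these 3 genes were not separable by their intervals. No test of the difference between members was made.

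H1f0 was at 331, 343 and 286 CPM in untreated and at 171, 134 and 141 CPM in irradiated libraries. The groups did not overlap, and irradiated libraries kept 46.5% of the untreated mean. Its log2 fold change of −1.10 ± 0.20 (edgeR adjusted p = 0.000754) was smaller in size than that of every clustered gene. The 95% interval, −1.53 to −0.68, lay above those of Hist1h1a, Hist1h1b and Hist1h1d and overlapped those of Hist1h1c and Hist1h1e. Among all tested genes, 673 had a log2 fold change at or below that of H1f0, against 203 for Hist1h1c.

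H1fx was measured by few reads, 20, 24 and 28 in untreated and 37, 24 and 32 in irradiated libraries. These came to 1.04, 1.09 and 1.07 CPM and to 2.29, 1.62 and 1.85 CPM, so the irradiated libraries lay above the untreated ones. The log2 fold change was 0.84 ± 0.48 (edgeR adjusted p = 0.264), with a 95% interval of −0.16 to 1.85, which includes no change. Groups did not overlap, with the irradiated ones higher, in 16.6% of all tested genes, and with the irradiated ones lower in 17.3%. Among the members, 1 and 6 were so placed.

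**Figure D2:**
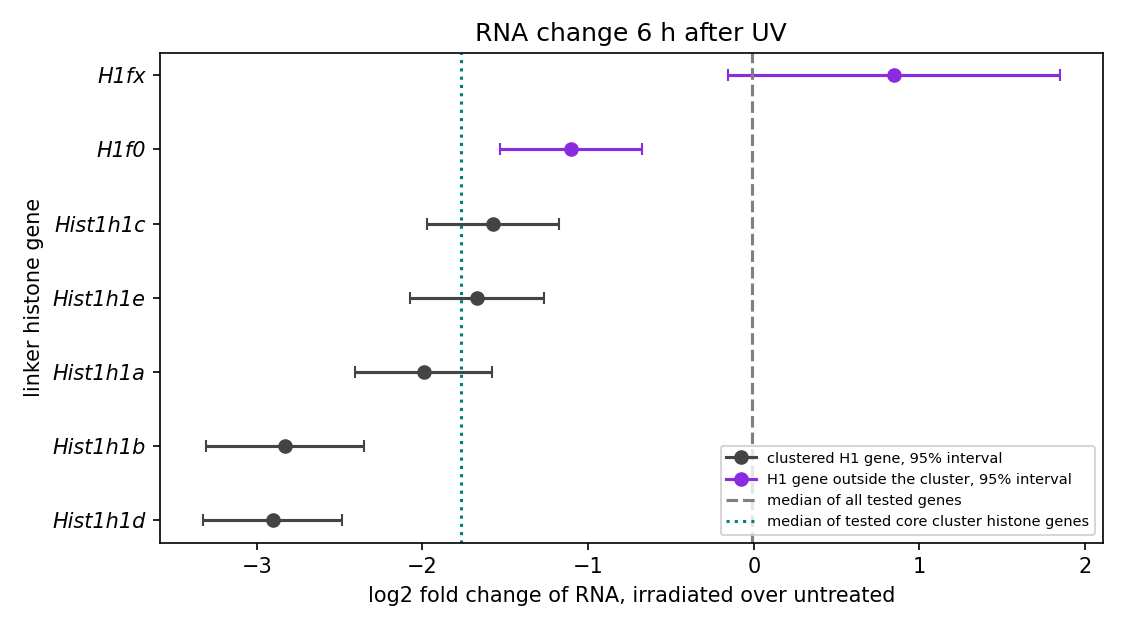
Log2 fold change of RNA, irradiated over untreated, for each linker histone gene, with 95% intervals from the edgeR fit, and dashed and dotted lines at the medians of all tested genes and of the core cluster histone genes. Hist1h1d and Hist1h1b lie near −2.9 and −2.8, H1f0 at −1.10 lies between the other clustered genes and 0, and the interval of H1fx includes 0.

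The authors' deposited table of the same comparison listed 6 of the members, all but H1fx, among 2068 genes with adjusted p-values up to 0.0999. In the authors' deposited table the log2 fold changes were −2.89 for Hist1h1d, −2.82 for Hist1h1b, −1.98 for Hist1h1a, −1.65 for Hist1h1e, −1.56 for Hist1h1c and −1.09 for H1f0, which is the same order as above.

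The unequal falls changed the make-up of the linker histone reads. H1f0 took 23.1%, 22.7% and 23.0% of the reads of the 7 genes in untreated libraries and 40.3%, 35.6% and 39.9% in irradiated ones. Hist1h1b went from 26.98%, 27.6% and 24.0% to 14.1%, 13.9% and 12.1%. The share of Hist1h1d went from 14.5% to 14.9% down to 6.39% to 7.90%. Hist1h1c moved the other way, from 14.1% to 15.5% up to 15.8% to 19.3%, although its own CPM fell. The shares of Hist1h1a (7.63% to 8.54% and 6.57% to 7.84%) and Hist1h1e (11.8% to 14.3% and 14.3% to 15.5%) overlapped between the groups. H1fx stayed under 0.1% in untreated libraries and was at 0.428% to 0.541% in irradiated ones. These are shares of reads, so they compare conditions for each gene and not the abundance of one gene with another.

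Set against both genes outside the cluster, the log2 ratio of clustered to H1f0 and H1fx reads was 1.73, 1.76 and 1.73 in untreated and 0.53, 0.83 and 0.56 in irradiated libraries. The ratio fell in every irradiated library, by 1.10 on average (1.74 ± 0.02 against 0.64 ± 0.17, SD, n = 3). It does not depend on the scaling between libraries, since both terms come from the same library. Nearly all of its lower term is H1f0. Per gene, the log2 ratio to H1f0 differed by −1.80 for Hist1h1d, −1.72 for Hist1h1b, −0.89 for Hist1h1a, −0.57 for Hist1h1e and −0.46 for Hist1h1c. It is given as a description with no test.

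**Figure D3:**
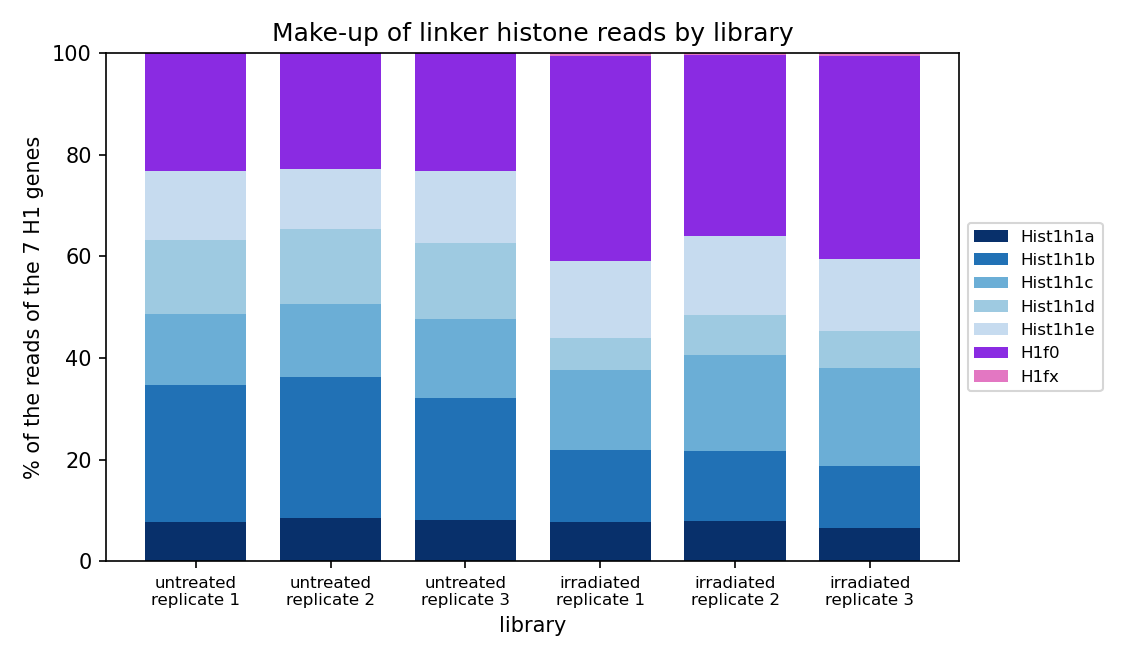
Share of the reads of the 7 linker histone genes taken by each gene (stacked bars, per cent) in each RNA library. H1f0 grows from about 23% in the untreated libraries to between 35.6% and 40.3% in the irradiated ones, and Hist1h1b and Hist1h1d shrink.

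Promoters were read from tables of 1000 bp windows at 21881 promoters, in which the authors merged the samples of a condition. The values therefore have 1 pool per condition, without replicate error or a test. The irradiated pool is the column named for DMSO, which the labels' protocol adds after irradiation; no label states this for the column itself. Enrichment is the deposited log2 ratio of reads over input, a difference is irradiated minus untreated, and a difference of at least 1 in size was called. For the read ratios, scaled by the depth of the pools, 95% intervals are exact conditional binomial intervals and cover counting error only.

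H3K27ac was called lower at 3.43% of all promoters and higher at 2.38%, and at 2 and 0 of the 7 members. The difference was below 0 at 56.1% of all promoters, where the median was −0.01, and at 6 of the 7 members, where the median was −0.42. Of 61 core cluster histone promoters, in the gene lists given below, 41 were below 0 (median −0.25), with 8 called lower and 3 higher. For variants outside the clusters 6 of 9 were below 0 (−0.24), and for histone mRNA factors 7 of 15 (0.02). For H1 chaperones, competitors and modifiers it was 10 of 21 (0.003), for S phase genes 11 of 25 (0.09). The other linker histone genes had 2 of 4 below 0 (−0.28). The members called lower were H1fx, with 179 reads in the untreated and 63 in the irradiated pool, and Hist1h1a, with 131 and 49. Their enrichment went from 2.14 to 0.83 and from 2.25 to 1.07, and the scaled read ratios were 0.349 (0.258 to 0.468) and 0.371 (0.262 to 0.519). With quantile normalization the difference of Hist1h1a was −0.92 in place of −1.18, which ends its call, and H1fx alone was called. At H1fx the mark was thus lower while its sparse RNA was not called.

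Hist1h1d had 222 reads of H3K27ac in the untreated and 119 in the irradiated pool, a difference of −0.82 and a scaled ratio of 0.531 (0.422 to 0.667). Hist1h1e had 185 and 135 reads, a difference of −0.42 and a ratio of 0.724 (0.575 to 0.908). For Hist1h1c the reads were 320 and 276, the difference −0.21, and the interval of the ratio, 0.725 to 1.01, included 1.

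Hist1h1b did not follow its RNA. Its promoter had 204 reads of H3K27ac in the untreated and 225 in the irradiated pool, a difference of 0.13 and a ratio of 1.09 (0.901 to 1.33), although its RNA was 7.10-fold lower. H1f0 carried the strongest acetylation of the family, with 1150 and 1127 reads in windows of equal length. Its enrichment of 4.74 and 4.71 stood at percentiles 99.1 and 96.8 of all promoters. The ratio was 0.972 (0.894 to 1.06), which includes 1, beside RNA at 46.5% of its untreated level. With quantile normalization of the pools the H3K27ac difference at H1f0 was −0.44 in place of −0.04, outside that counting interval.

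**Figure D4:**
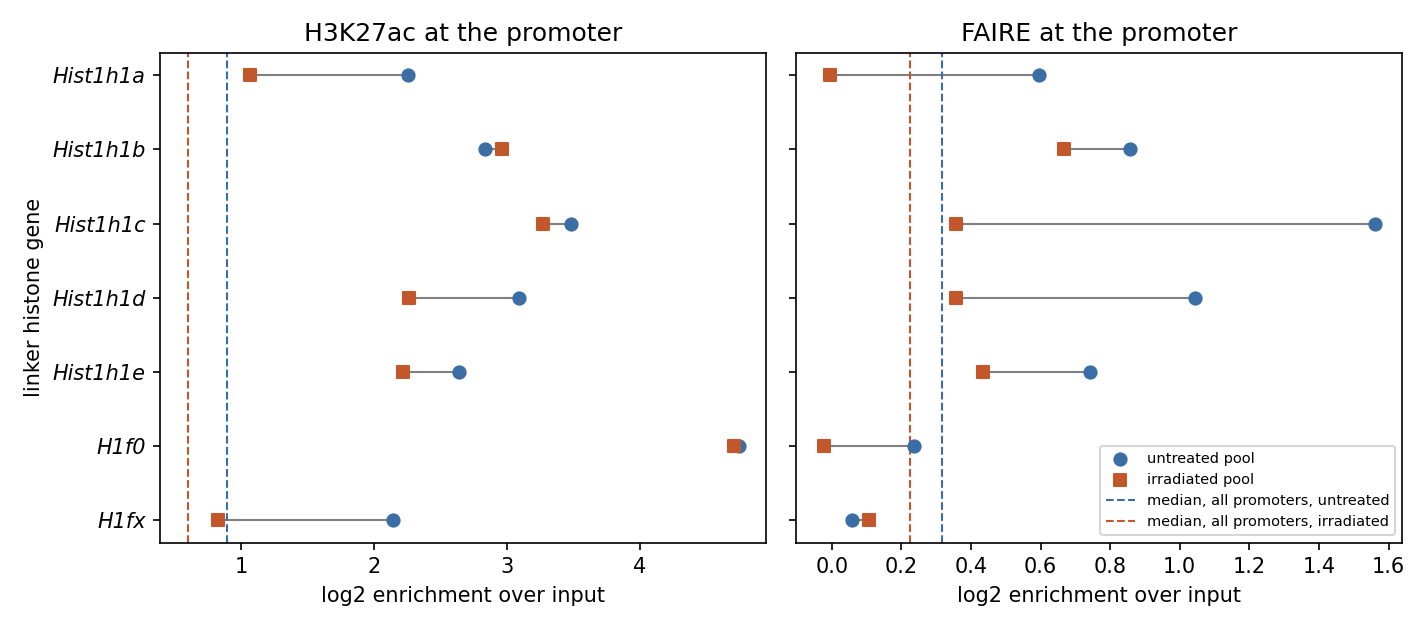
Deposited log2 enrichment over input of H3K27ac (left) and FAIRE (right) at each linker histone promoter in the untreated (blue circles) and irradiated (orange squares) pools, with dashed lines at the medians of all promoters. H3K27ac is far lower after UV at Hist1h1a and H1fx, and nearly equal at H1f0 and Hist1h1b. FAIRE is lower at 6 of the 7 promoters, beside 68.0% of all promoters. At Hist1h1b, Hist1h1e and H1f0 among these, the interval of the FAIRE read ratio includes 1.

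FAIRE signal rested on fewer reads, 28 to 70 per member in the untreated and 11 to 27 in the irradiated pool. It was called lower at 1.05% of all promoters and higher at 0.00457%, and at 1 and 0 of the members. The difference was below 0 at 68.0% of all promoters, with a median of −0.17, and at 6 of the 7 members, with a median of −0.31. In the gene lists given below, it was below 0 at 53 of 61 core cluster histone promoters (median −0.57). For variants outside the clusters this held at 9 of 9 (−0.65) and for histone mRNA factors at 14 of 15 (−0.44). For H1 chaperones, competitors and modifiers it held at 20 of 21 (−0.46), and for S phase genes at 25 of 25 (−0.41). The other linker histone genes had 3 of 4 below 0 (−0.05). The called member was Hist1h1c, with 70 and 18 reads, enrichment of 1.56 and 0.36 and a scaled read ratio of 0.320 (0.180 to 0.544). Its difference of −1.20 was among the lowest 0.297% of all promoters, while its H3K27ac differed by −0.21. With quantile normalization the difference of Hist1h1c was −0.87 and no member was called, and Hist1h1b was above 0, at 0.16.

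Hist1h1d had 40 and 16 FAIRE reads, a difference of −0.69 and a ratio of 0.498 (0.261 to 0.910). Hist1h1a had 29 and 11, a difference of −0.60 and a ratio of 0.472 (0.213 to 0.974). Among all promoters, whose median difference was −0.17, Hist1h1d and Hist1h1a stood at percentiles 8.4 and 13.0. The intervals are set against a ratio of 1 and not against that median. With 1 read in place of 16 added to each term, the difference of Hist1h1a was −1.03 and it would be called. At Hist1h1b (38 and 27 reads), Hist1h1e (36 and 22), H1f0 (33 and 20) and H1fx (28 and 24) the interval of the ratio included 1, so no change was detectable at this depth. At H1f0 the enrichment over input was 0.24 and −0.02, that is, near input level in the promoter with the family's strongest H3K27ac.

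**Figure D5:**
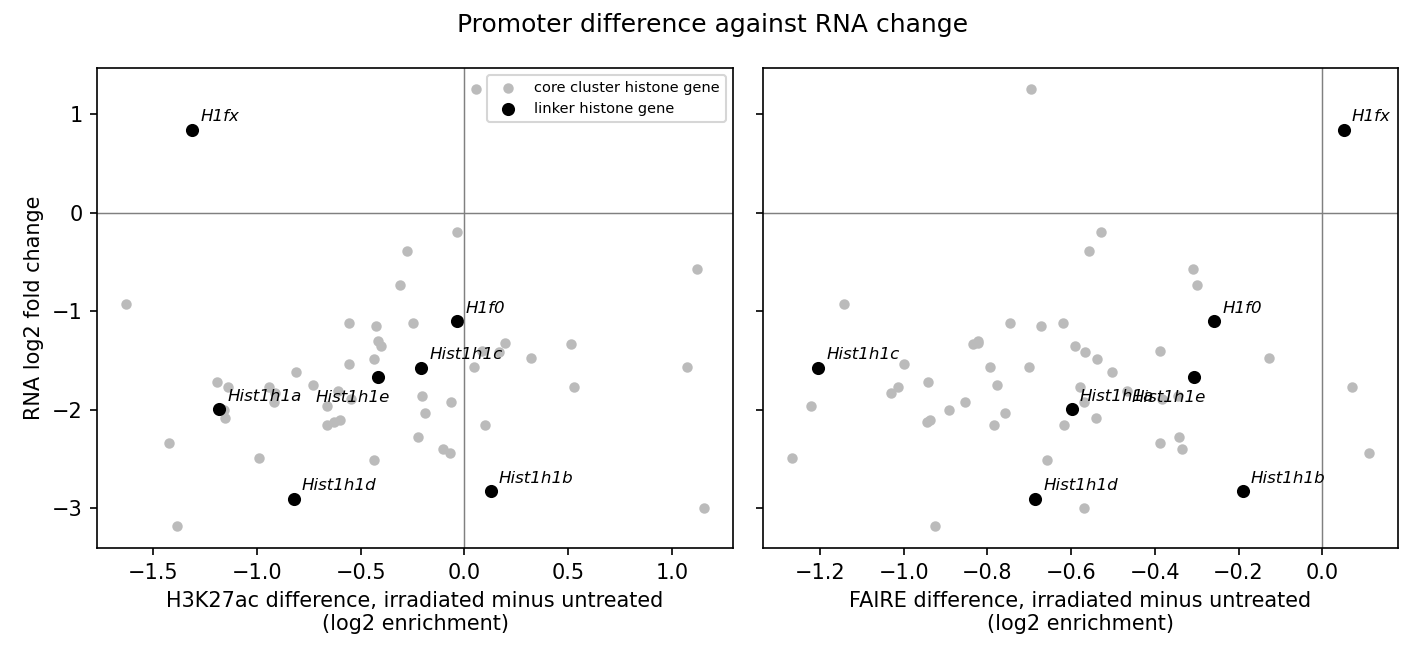
RNA log2 fold change against the promoter difference in H3K27ac (left) and FAIRE (right), for the linker histone genes (black, named) and the tested core cluster histone genes (grey). Hist1h1b and Hist1h1d share a low RNA value and differ in H3K27ac (0.13 and −0.82), and H1fx has the lowest H3K27ac difference of the family with RNA above 0.

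Genes that work with the linker histones are given by list, beside the 12.4% of all tested genes that were lower and the 7.7% that were higher. Of 48 tested core histone genes of the clusters, which encode the H2A, H2B, H3 and H4 proteins, 44 fell, 1 rose and 3 were not called, at a median of −1.77. The clustered H1 genes lie within the core genes' range of −3.19 to 1.26, but its upper end is the 1 gene that rose. Among the tested core genes only Hist1h3g and Hist1h2an (−3.00), the latter named after its value was seen, fell further than Hist1h1d and Hist1h1b. Hist1h1a, at −1.99, was also below the core median, while Hist1h1e (−1.67) and Hist1h1c (−1.57) were above it. Hist1h3g fell from 19.8 ± 1.76 to 2.18 ± 0.688 CPM (log2 fold change −3.19, SD, n = 3, edgeR adjusted p = 8.42e-08), and the log2 fold changes of Hist1h2bc and Hist1h4i were −2.52 and −2.40. The rise was that of Hist2h2be (log2 fold change 1.26, edgeR adjusted p = 0.00217), named after its value was seen. In RefSeq's gene order, 8 of the 10 protein-coding genes next to a clustered H1 gene were core histone genes, and all 8 fell, with log2 fold changes of −2.13 to −1.41. Hfe, beside Hist1h1c, was at 0.08 (edgeR adjusted p = 0.971) at a low level of 1.9 CPM in untreated and 2.0 CPM in irradiated libraries. Trim38, beside Hist1h1a, was not tested. The neighbours of H1f0 were Triobp at −0.10 (edgeR adjusted p = 0.887) and Gcat, which rose by 0.65 (edgeR adjusted p = 0.0196). Those of H1fx were Hmces at −0.02 and Rab7 at 0.08, neither of them called. These neighbours were looked up after the members' values were known.

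Of 15 tested factors for the synthesis and 3′ end formation of histone mRNA 5 fell, none rose and 10 were not called, at a median of −0.37. None was higher at an unadjusted p below 0.05 in edgeR, and DESeq2 called 4 lower and 0 higher. Slbp, whose product binds the stem-loop, fell from 114 ± 17.3 to 44.7 ± 6.65 CPM (SD, n = 3), a log2 fold change of −1.35 (edgeR adjusted p = 8.49e-05). Npat, a coactivator of histone genes in S phase, fell from 66.9 ± 3.28 to 28.3 ± 5.96 CPM (log2 fold change −1.24, edgeR adjusted p = 0.00013). Lsm11, which encodes a subunit of the U7 particle that cleaves histone pre-mRNA, was at −0.94. The number lower was 3 without untreated replicate 1, untreated replicate 2 or irradiated replicate 3, and 11 by library totals alone, and 1 rose without untreated replicate 2. That scaling put the median over the tested genes at −0.24.

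Of 9 histone variants outside the clusters 3 rose and 1 fell, at a median of 0.30. H2afj rose by 1.83 (edgeR adjusted p = 4.35e-06) and H3f3b, which encodes H3.3, by 0.91 on the log2 scale (edgeR adjusted p = 0.00373). H2afx, which encodes the variant phosphorylated at DNA breaks, fell by 0.84 (edgeR adjusted p = 0.00229). Without untreated replicate 2, 6 of these genes rose, and without irradiated replicate 3, 1 did.

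Of 21 chaperones, competitors and modifiers of linker histones 2 fell, 2 rose and 17 were not called, at a median of 0.11, and at −0.14 by library totals alone. Nasp, which encodes a histone chaperone that binds H1, fell from 198 ± 30.6 to 95.1 ± 23.0 CPM (log2 fold change −1.06, SD, n = 3, edgeR adjusted p = 0.00186). Rnf8, whose product ubiquitylates histones at DNA damage, fell by 1.08, and Hmgn1, whose product competes with H1 on nucleosomes, rose by 0.66 on the log2 scale (edgeR adjusted p = 0.0314). Without irradiated replicate 1 the number lower was 7, and without irradiated replicate 3 none rose.

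Of 25 S phase genes 5 fell, none rose and 20 were not called, at a median of −0.08, with 2 higher at an unadjusted p below 0.05 in edgeR and 4 lower and 0 higher by DESeq2. Orc1, an origin recognition subunit gene, fell by 1.30, the cyclin gene Ccne1 by 1.26 and Ccna2, which encodes the S phase cyclin A2, by 1.06 on the log2 scale. The number lower was 9 without irradiated replicate 1 and 3 without irradiated replicate 3, and the number higher was 2 without untreated replicate 1 or irradiated replicate 2 and 1 without untreated replicate 2. The other linker histone genes, Hist1h1t, H1fnt, H1foo and Hils1, which are germ cell types, had at most 17 reads in any library and were not tested.

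The genes most like Hist1h1b across the 6 libraries were Cdkn2aipnl (Pearson r = 0.999), Ccdc32, Gtf2b, Rabgef1 and Hist1h2bj, out of 9619 genes that averaged 5 CPM or more. Those most like H1f0 were Sap30bp (Pearson r = 0.999), Wtap, Filip1l, Pptc7 and Fam76b. Their log2 fold changes were −1.28 to −2.49 and −0.95 to −1.23. The 6 points share the libraries and the split by treatment, so the likeness is a description only.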

How the data were processed

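The members and gene lists were chosen with earlier results of these data known. The RNA files hold raw read counts per gene, as the authors deposited them. The promoter tables hold read counts per window for pooled samples and log2 enrichment, per the file headers. The deposited log2 values equal log2 of (reads + 16) over (scaled input reads + 16), recomputed from the reads with an error below 1e-06. The authors' deposited comparison gives log2 fold changes and p-values. Bowtie 0.12.9, TopHat, MACS2, DESeq2 and build mm9 are named in the submitters' processing notes, without roles. At least 8 columns of values in the chromatin tables were not used.

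RNA was tested in R 4.3.3 with edgeR 4.0.16 (filterByExpr, TMM, glmQLFit, glmQLFTest, no replicate block), and steps were tested on simulated data. DESeq2 1.42.0 was an alternative. An SE is the size of the log2 fold change over the square root of F. Python 3.11.15, pandas 2.3.3, scipy 1.17.1 and matplotlib 3.10.9 served the promoter tables and figures. Replicates within a group differed beyond sampling noise (chi-square per degree of freedom 5.51 to 58.3). Members and the lists' called genes of smallest p (up to 3 per list, with Slbp and Npat) were named, with the 5 genes most correlated with Hist1h1b and with H1f0. Promoter sequences came from RefSeq, GRCm38.p6. The files give no mm9 gene positions, so peaks were not used here, and protein sequences were not used here.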

Additional observations from a re-analysis of the deposited data

How the results depend on the processing

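All 84 member log2 fold changes under the 12 alternative RNA fits kept their direction and their side of the threshold, with edgeR or DESeq2 adjusted p of at most 0.0141 for H1f0 and at most 0.00186 for the clustered genes. Without each library in turn, 6 members were lower and 0 higher in every fit, and the log2 ratio of clustered to other H1 reads changed by −1.199 to −1.05. With H1fx alone, at 20 to 37 reads, as its lower term it was −3.03. The counts over all genes were less stable: 585 to 1941 higher and 1139 to 2849 lower without each library, and 3739 lower by library totals alone. The number higher was 1796 without untreated replicate 1, 1941 without untreated replicate 2 and 585 without irradiated replicate 3, and the number lower was 1168 without untreated replicate 2, 2849 without irradiated replicate 1 and 1139 without irradiated replicate 3. In the context lists, library totals alone gave 9 S phase genes, 11 histone mRNA factors and 6 chaperones, competitors and modifiers lower. A minimum of 1 CPM in 3 libraries gave 1 S phase gene higher and 4 chaperones, competitors and modifiers lower, and without a low-count filter 0 of the latter were higher. Without each library, S phase genes lower ranged from 3 to 9 and higher from 0 to 2, histone mRNA factors lower from 3 to 7 and higher from 0 to 1, variants higher from 1 to 6, and chaperones, competitors and modifiers lower from 2 to 7 and higher from 0 to 3. Deviations of same-numbered libraries from their group means correlated at 0.155, −0.58 and 0.504, so not every library correlated best with its own number. With 3 libraries per group, such correlations cannot exclude that the replicate numbers pair the libraries. With the replicate number as a block, 6 members were lower, 1276 genes were higher and 2067 lower, and 2 S phase genes were higher. Of 56 member promoter differences under alternatives, 55 stayed within counting error. The exception was H3K27ac at H1f0, at −0.44 with quantile normalization. That setting left 1 member, H1fx, called for H3K27ac and 0 for FAIRE, and FAIRE called 2 with 1 read added or with no input term. Within its wide counting interval, the FAIRE difference of Hist1h1b changed sign, at 0.16 with quantile normalization in place of −0.19. At a threshold of 0.58, 12.1% of promoters were lower for H3K27ac and 14.2% for FAIRE. The causes were not tested. Depth limits H1fx in RNA and all FAIRE values.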
